A study of Mus musculus with 12 samples.

Results

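The genes described are those of peroxisome biogenesis and of oxidation inside peroxisomes in mouse liver. Their rule uses names, though it was set with earlier results of these data known: 16 peroxins (symbols Pex followed by a digit) and 25 oxidation enzymes and membrane transporters, 41 of the 12284 named genes of the deposited table. Since members are rows of that table, a gene of these families that the authors' filter on low values removed could not be among them; all 41 had a value in every library. Polyadenylated RNA of liver was sequenced in 12 libraries, 6 from control mice (WT) and 6 from mice lacking Acly and Acss2 in hepatocytes (double knockout, DKO). Both groups were Acly f/f; Acss2 f/f mice, so the controls carried the floxed alleles too. Adeno-associated virus was injected at 6 to 8 weeks of age, AAV8-TBG-Cre in the DKO group and AAV8-TBG-GFP in the WT group, and a Western diet began 1 week later and lasted 6 weeks. The TBG promoter is hepatocyte-directed, so other liver cells were not targeted, and effects of Cre or GFP cannot be told apart from those of the deletion. Sex and strain are not given in these sources, and neither is it said that every library came from its own mouse; the p-values below describe variation among libraries only.

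Peroxisomes are small organelles with a single membrane that import folded proteins. Peroxins build that membrane, carry enzymes across it and divide the organelle. Inside, very long and branched fatty acids, dicarboxylic acids and bile acid precursors are shortened as coenzyme A esters, which yields acetyl-CoA and hydrogen peroxide, and catalase removes the peroxide. In rodent liver many of these genes are targets of the nuclear receptor PPARα. Acly and Acss2 make cytosolic acetyl-CoA from citrate and from acetate, and the comparison of DKO with WT asks what their joint loss does to the liver on a Western diet.

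The labels matched the level of the deleted genes. Acss2 lay between 6.12 and 7.45 log2 CPM (CPM is a share of the reads of a library, scaled to a fixed total) in WT and between 3.59 and 5.74 in DKO, with no overlap. Acly lay between 6.56 and 9.35 in WT, and 5 of 6 DKO libraries were below that range while DKO 1 (6.60) was inside it. The 19 hepatocyte markers with a value summed to between 93021 and 112500 CPM per library in WT and between 80922 and 116482 in DKO. WT 1 and DKO 1 had the lowest correlation with the mean of the other libraries of their groups (r = 0.966 and 0.961, against 0.969 to 0.982 for the rest, across genes). Read depth per library is unknown and no counting error was computed.

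Peroxisomal genes were lower in DKO for 37 of 41 members, and 4 members fell at a limma adjusted p below 0.05 while 0 rose. Across all genes tested, 1.74% were called, 1.12% lower and 0.619% higher, and 49.2% had a lower mean in DKO. All 4 that fell were enzymes of β-oxidation: the thiolases Acaa1b and Acaa1a and the isomerases Ech1 and Eci2. At an unadjusted p below 0.05, 17 members were lower and 0 higher, against 8.47% lower and 7.95% higher among all genes. The median log2 difference was -0.20 for the 16 peroxins and -0.30 for the 25 enzymes and transporters, beside 0.00414 for all genes; with quantile normalization the medians were -0.18 and -0.19. Of the peroxins 15 were lower and 0 were called in either direction by limma (6 at an unadjusted p below 0.05, all lower). The members were chosen with earlier results of these data known, so no p over the list is given.

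**Figure D1:**
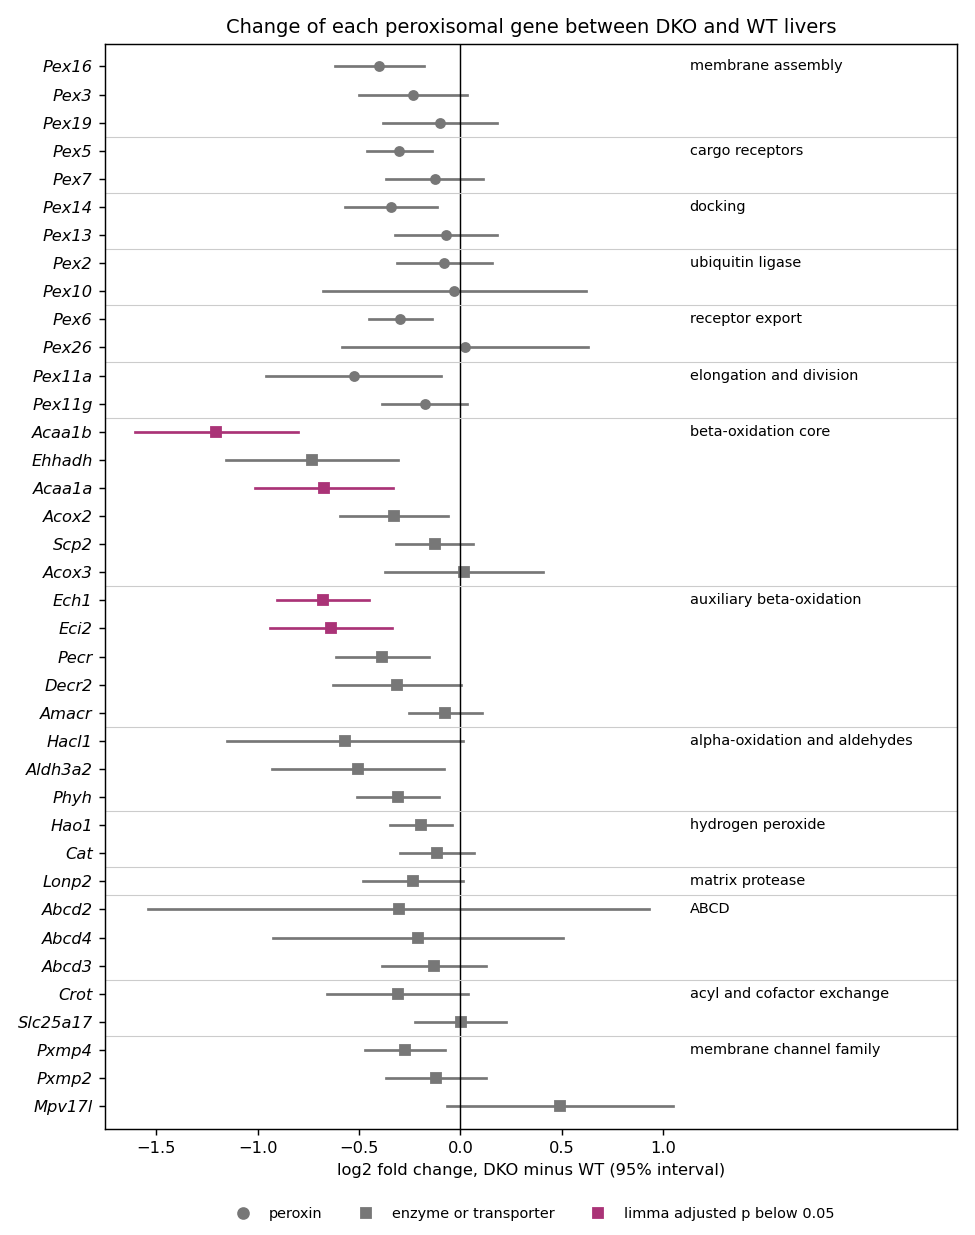
Log2 fold change of 38 of the 41 genes between DKO and WT (6 libraries each), with its 95% limma interval on the x axis and genes on the y axis grouped by role. Most points lie left of 0; the 4 coloured points, Acaa1b, Acaa1a, Ech1 and Eci2, are the genes with an adjusted p below 0.05, and Mpv17l is the rightmost point at 0.49.

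The thiolases carry out the last step of each round, cutting a 3-ketoacyl-CoA to release acetyl-CoA. Mice have a pair of these genes, Acaa1a and Acaa1b, on the same chromosome. The 250 bases before the annotated start of each are shown because the genes are close relatives that both fell; capitals mark GGGCGG (the GC box bound by Sp1 family factors) or its complement CCGCCC. The isomerases that fell with them follow in the same way. All are from RefSeq on build GRCm38.p6, which is not the build named for the deposited values (GRCm39).
Acaa1a (chr9:119341044-119341293, plus strand): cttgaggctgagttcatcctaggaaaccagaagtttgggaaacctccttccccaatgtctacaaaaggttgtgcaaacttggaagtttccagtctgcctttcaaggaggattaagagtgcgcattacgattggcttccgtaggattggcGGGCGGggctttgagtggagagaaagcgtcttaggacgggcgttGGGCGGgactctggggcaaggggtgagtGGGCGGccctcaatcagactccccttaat
Acaa1b (chr9:119157094-119157343, minus strand): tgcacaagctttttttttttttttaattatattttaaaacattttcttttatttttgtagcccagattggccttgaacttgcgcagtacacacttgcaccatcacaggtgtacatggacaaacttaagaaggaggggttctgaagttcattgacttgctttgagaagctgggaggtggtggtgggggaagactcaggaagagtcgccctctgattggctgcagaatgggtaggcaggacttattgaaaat
Ech1 (chr7:28825088-28825337, plus strand): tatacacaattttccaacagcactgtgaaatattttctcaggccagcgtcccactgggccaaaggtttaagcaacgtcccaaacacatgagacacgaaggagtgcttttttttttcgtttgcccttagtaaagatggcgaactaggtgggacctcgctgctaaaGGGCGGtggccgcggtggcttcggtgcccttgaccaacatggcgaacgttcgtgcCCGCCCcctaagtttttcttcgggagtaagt
Eci2 (chr13:34994145-34994394, minus strand): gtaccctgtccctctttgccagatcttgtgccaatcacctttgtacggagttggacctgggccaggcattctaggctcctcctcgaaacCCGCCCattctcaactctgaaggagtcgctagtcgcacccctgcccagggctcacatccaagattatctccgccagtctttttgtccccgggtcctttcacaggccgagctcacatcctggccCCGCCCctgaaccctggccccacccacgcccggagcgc
The Acaa1a stretch holds 3 GC boxes and the Acaa1b stretch 0, while Ech1 and Eci2 hold 2 each. Bases G and C made up 53.6% of the Acaa1a stretch and 41.6% of that of Acaa1b. Over the 37 promoters found for 31 of the 41 members, 62.2% held at least 1 GC box in these 250 bases on either strand, and 32.7% of the 32851 promoters of the table did. Those 32851 include genes that were not measured here. The share among promoters of measured genes was not computed for this motif, so whether the members differ from other measured genes is unknown. None of the 4 stretches held AGGTCA, the half-site of nuclear receptors, or TATAAA on either strand, which 14.0% and 12.4% of all promoters held.

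Acaa1b fell to 43.4% of its WT level, the largest change among the 41 genes. Its log2 CPM was 10.30, 10.79, 11.08, 11.24, 11.11 and 10.65 in WT 1 to WT 6, and 9.48, 10.37, 9.74, 9.36, 9.59 and 9.40 in DKO 1 to DKO 6. The groups overlapped only through WT 1 and DKO 2; the other 5 DKO libraries lay below every WT library. The mean was 10.86 ± 0.35 for WT libraries and 9.66 ± 0.38 for DKO libraries (SD, n = 6 per group), a log2 difference of -1.20 (SE 0.19) with a 2-sided exact permutation p of 0.00433 and a limma adjusted p of 0.00678.

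Acaa1a fell to 62.7% of WT. Its log2 CPM was 7.65, 8.24, 8.31, 8.53, 8.63 and 8.22 in WT 1 to WT 6, and 7.15, 7.43, 7.60, 7.82, 7.85 and 7.68 in DKO 1 to DKO 6. WT 1 stood below the other WT libraries and inside the DKO range, and the other 5 WT libraries were above every DKO library. The log2 difference was -0.67 (SE 0.16; limma adjusted p = 0.0473). The call was fragile: with any single library other than WT 1 left out, the adjusted p was 0.0519 to 0.106, and without WT 1 it was 0.00743.

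Acaa1a and Acaa1b are similar enough that their reads can be confused. Of the distinct 31-base words in the coding transcripts of Acaa1a (GENCODE M21), 35.3% also occurred in Acaa1b, and 45.7% of those of Acaa1b occurred in Acaa1a. The sources do not say how shared reads were assigned, so the split between the pair is uncertain. Within a library, log2 Acaa1b minus log2 Acaa1a was 2.60 ± 0.13 in the WT group and 2.07 ± 0.52 in the DKO group (mean ± SD of 6 libraries). The ratio of the thiolases was thus 69.2% of its WT value, a log2 difference of -0.53 that did not pass after adjustment over 7 pairs of related genes (exact permutation p = 0.0455, adjusted p = 0.159). DKO 2 had the highest ratio of all 12 libraries at 2.94. Leaving it out gave the largest difference of any single omission, -0.71, with an adjusted exact permutation p of 0.0152. The other 5 DKO libraries, from 1.54 (DKO 4) to 2.33 (DKO 1), were all below the WT range of 2.43 to 2.77.

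**Figure D2:**
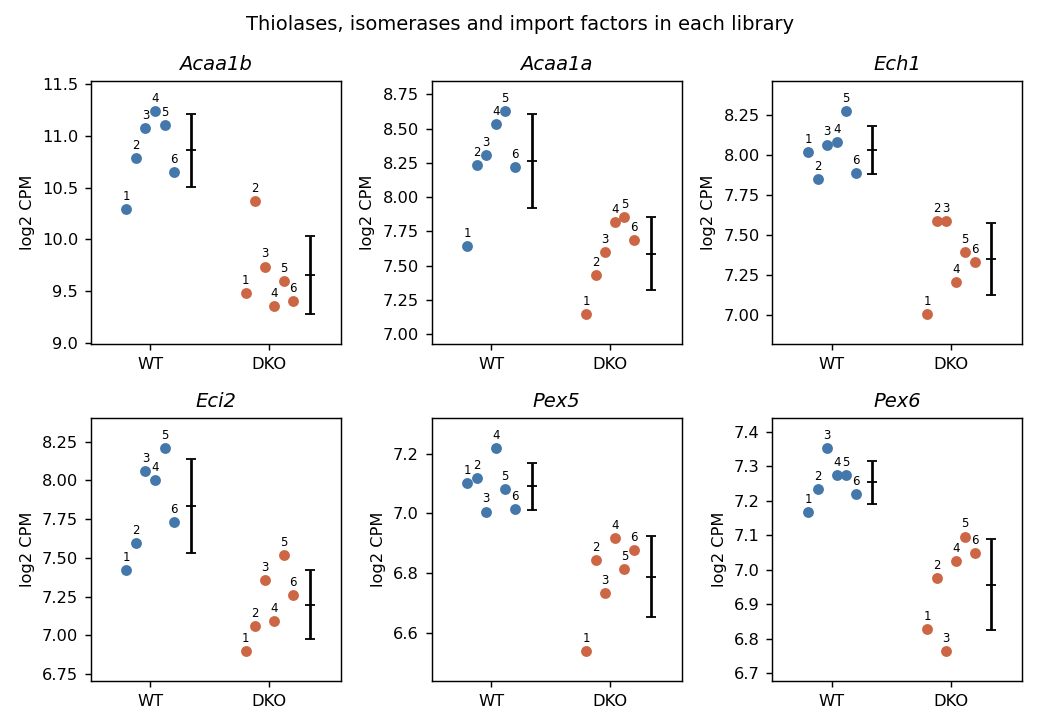
Log2 CPM (y axis, not starting at 0) of 6 genes in each WT and DKO library (x axis), with the replicate number beside each point and the mean ± SD at the right of each group. For Ech1, Pex5 and Pex6 the groups do not overlap; for Acaa1b, Acaa1a and Eci2 the overlap involves WT 1.

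Enzymes that prepare unsaturated fatty acids for β-oxidation gave the other calls. Ech1, a dienoyl-CoA isomerase found in peroxisomes and mitochondria, fell to 62.5% of WT. It stood at 8.02, 7.85, 8.07, 8.08, 8.27 and 7.89 log2 CPM in WT 1 to WT 6 and at 7.01, 7.59, 7.59, 7.21, 7.39 and 7.33 in DKO 1 to DKO 6. All DKO libraries were below all WT libraries, which 3 members (Ech1, Pex5 and Pex6) showed in this direction and 0 in the other; among all genes 1.38% were separated this way and 0.79% the other, 2.17% in all. The log2 difference was -0.68 (SE 0.11), with a limma adjusted p of 0.00722 and an exact permutation p of 0.00216, the smallest that 6 against 6 libraries allow.

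Eci2, the enoyl-CoA isomerase that moves double bonds into the position β-oxidation needs, fell to 64.3% of WT. Its log2 CPM was 7.42, 7.59, 8.06, 8.00, 8.21 and 7.73 in WT 1 to WT 6, and 6.90, 7.06, 7.36, 7.09, 7.52 and 7.26 in DKO 1 to DKO 6. DKO 5 was the only DKO library above the lowest WT library, WT 1. The log2 difference was -0.64 (SE 0.14; limma adjusted p = 0.0362), and the adjusted p rose to as much as 0.0858 with single libraries left out. Eci2 shared 9.48% of its 31-base words with its relative Eci3. Sharing was larger for some members described below, whose levels are uncertain in the same way: 54.4% for Hacl1 (with Gm49387), 47.2% for Pex11g (Gm44775), 41.5% for Scp2 (Scp2-ps2) and 27.8% for Pex14 (Gm17029).

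The other auxiliary enzymes were lower in DKO without passing in the full comparison. Pecr, which reduces trans-2-enoyl-CoA, ran from 7.24 to 7.57 log2 CPM in WT and from 6.68 to 7.39 in DKO (log2 difference -0.38, SE 0.11, limma adjusted p = 0.0863), and 5 of 6 DKO libraries lay below the WT range while DKO 6 (7.39) lay within it. Without DKO 6 the limma adjusted p of Pecr was 0.0228. With any other single library left out Pecr was not called (adjusted p up to 0.172). Decr2, the peroxisomal dienoyl-CoA reductase, had a log2 difference of -0.31 (SE 0.15, adjusted p = 0.308). Amacr, the racemase that turns branched acyl-CoA into the form the oxidases accept, was at 7.01 ± 0.13 in WT and 6.94 ± 0.14 in DKO (log2 difference -0.07, SE 0.08, adjusted p = 0.72).

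Ehhadh, the bifunctional hydratase and dehydrogenase of the middle steps, showed the second largest difference but missed the threshold. It stood at 7.66, 8.48, 8.94, 8.77, 8.98 and 8.54 log2 CPM in WT 1 to WT 6 and at 7.70, 8.28, 7.97, 7.61, 7.84 and 7.58 in DKO 1 to DKO 6. WT 1 was as low as the DKO libraries, and the other 5 WT libraries were above all of them. The level in DKO was 60.2% of WT (log2 difference -0.73, SE 0.20, limma adjusted p = 0.0794, exact permutation p = 0.0152). Without WT 1 the log2 difference was -0.91 with a limma adjusted p of 0.0054. With any other single library left out Ehhadh was not called (adjusted p up to 0.165).

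The oxidases and the sterol carrier differed less. Acox2, the oxidase of bile acid precursors and branched chains, was at 7.92 ± 0.26 log2 CPM in WT and 7.59 ± 0.20 in DKO (log2 difference -0.33, SE 0.12, adjusted p = 0.197), with all 6 DKO libraries below the WT mean. Acox3, the other branched-chain oxidase, was at 5.19 ± 0.25 and 5.21 ± 0.43 (log2 difference 0.02, SE 0.18, adjusted p = 0.976), and the sign of this small difference turned with other scaling. Scp2, whose longer product is the thiolase of branched chains and whose shorter product binds sterols, was at 12.14 ± 0.09 and 12.02 ± 0.10 (log2 difference -0.13, SE 0.09, adjusted p = 0.518). The difference between Acox3 and Acox2 within a library changed by 0.35 between the groups (adjusted exact permutation p = 0.388).

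Enzymes of α-oxidation and aldehyde removal were all lower in DKO, with 0 of 3 called by limma and 2 at an unadjusted p below 0.05. Phyh, the hydroxylase that begins the breakdown of phytanic acid, stood at 10.63, 10.77, 10.56, 10.72, 10.82 and 10.94 log2 CPM in WT 1 to WT 6 and at 10.36, 10.40, 10.37, 10.37, 10.34 and 10.76 in DKO 1 to DKO 6. All DKO libraries except DKO 6 lay within a narrow band under the WT range, and DKO 6 lay among the WT libraries. The log2 difference of Phyh was -0.31 (SE 0.09, limma adjusted p = 0.11), and without DKO 6 its adjusted p was 0.0359. With any other single library left out Phyh was not called (adjusted p up to 0.209). Hacl1, the lyase that removes a single carbon in the same pathway, ran from 7.25 to 9.07 in WT and from 6.81 to 7.81 in DKO (log2 difference -0.57, SE 0.27, adjusted p = 0.315), the widest WT spread of the 25 enzymes and transporters (SD 0.68). Aldh3a2, the fatty aldehyde dehydrogenase, had a log2 difference of -0.51 (SE 0.20, adjusted p = 0.212). For Aldh3a2 WT 1 was at 8.18 and the next WT library at 8.97, and without WT 1 the limma adjusted p was 0.0389. With any other single library left out Aldh3a2 was not called (adjusted p up to 0.347).

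Genes of hydrogen peroxide metabolism and protein quality control were lower in DKO for 3 of 3, with 0 called by limma and 1, Hao1, at an unadjusted p below 0.05. Cat, catalase, was between 11.25 and 11.41 log2 CPM in WT and between 10.99 and 11.34 in DKO (log2 difference -0.12, SE 0.08, limma adjusted p = 0.539; 92.3% of WT). Its 250 bases before the start are shown because they hold the only match in the upstream stretches of the members to the direct repeat AGGTCANAGGTCA, the site type of PPARα with its partner RXR, with up to 2 mismatches over the 12 fixed bases. The match is in capitals and begins at position -204, counted from the start.
Cat (chr2:103485154-103485403, minus strand): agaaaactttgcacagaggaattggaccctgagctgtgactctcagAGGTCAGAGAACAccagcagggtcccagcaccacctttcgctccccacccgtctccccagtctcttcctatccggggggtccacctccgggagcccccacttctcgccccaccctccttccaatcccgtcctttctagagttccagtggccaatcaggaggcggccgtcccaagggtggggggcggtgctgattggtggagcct
With that tolerance, either strand and the whole 300-base window, 2 of the 37 member promoters (5.41%) held the repeat, the other in an Acox2 promoter. The share was 3.86% of all promoters of the table and 3.11% of the promoters of measured genes. The matches are letters in a short window and say nothing of binding. Hao1, the glycolate oxidase, which makes hydrogen peroxide, was at 8.14 ± 0.10 in WT and 7.95 ± 0.10 in DKO (log2 difference -0.19, SE 0.07, adjusted p = 0.181), with 5 of 6 DKO libraries below the WT range. Lonp2, the protease of the peroxisomal matrix, had a log2 difference of -0.23 (SE 0.11, adjusted p = 0.33).

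The transporters and membrane proteins held no called gene: 0 of 8 passed in either direction by limma, and 1, Pxmp4, had an unadjusted p below 0.05. Abcd3, the main transporter for acyl-CoA in liver peroxisomes, was between 8.92 and 9.21 log2 CPM in WT and between 8.66 and 9.35 in DKO (log2 difference -0.13, SE 0.12, adjusted p = 0.64). Abcd2, a relative for very long chains, spanned 1.22 to 2.51 in WT and -0.01 to 4.56 in DKO, where DKO 1 was lowest and DKO 2 highest (log2 difference -0.30, SE 0.58, adjusted p = 0.849). Abcd4, a family member that serves lysosomal vitamin B12 export, had a log2 difference of -0.21 (SE 0.33, adjusted p = 0.814). The 95% limma intervals of the log2 difference were wide, -1.54 to 0.93 for Abcd2 and -0.93 to 0.50 for Abcd4.

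Crot, the carnitine octanoyltransferase that readies shortened acyl groups for export to mitochondria, stood at 8.43, 8.38, 8.26, 8.59, 8.46 and 8.69 log2 CPM in WT 1 to WT 6 and at 8.39, 8.89, 7.92, 7.78, 7.86 and 8.11 in DKO 1 to DKO 6. DKO 2 was above every WT library, DKO 1 was within their range and the remaining 4 were below it (log2 difference -0.31, SE 0.16, limma adjusted p = 0.363). Slc25a17, the peroxisomal carrier of coenzyme A and other nucleotides, was at 5.58 ± 0.15 in WT and 5.58 ± 0.21 in DKO (log2 difference 0.00197, SE 0.10), and its sign turned with other scaling. Pxmp4 was at 6.52 ± 0.15 and 6.25 ± 0.16 (log2 difference -0.27, adjusted p = 0.145) and Pxmp2, a channel protein, at 6.60 ± 0.23 and 6.47 ± 0.19 (-0.12, adjusted p = 0.66). Mpv17l, a relative of Pxmp2, was the member with the most positive difference, 0.49 (SE 0.26, adjusted p = 0.364); 5 of 6 DKO libraries lay above the WT mean and DKO 2, at 3.65, lay far below the other DKO libraries, near WT 1 at 3.56.

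Among the peroxins, the matrix import machinery came closest to the threshold. Pex5, the receptor that binds the C-terminal targeting signal of most matrix enzymes, stood at 7.10, 7.12, 7.01, 7.22, 7.08 and 7.02 log2 CPM in WT 1 to WT 6 and at 6.54, 6.84, 6.73, 6.92, 6.81 and 6.88 in DKO 1 to DKO 6. Pex6, an ATPase that helps pull the used receptor out of the membrane, stood at 7.17, 7.23, 7.35, 7.28, 7.27 and 7.22 in WT 1 to WT 6 and at 6.83, 6.98, 6.77, 7.03, 7.10 and 7.05 in DKO 1 to DKO 6. For both genes every DKO library was below every WT library. The differences were small and even: Pex5 was at 81.1% of WT (log2 difference -0.30, SE 0.07, limma adjusted p = 0.058) and Pex6 at 81.4% (log2 difference -0.30, SE 0.07, adjusted p = 0.0536), each with an exact permutation p of 0.00216. Neither gene was called in the full comparison. Over the alternatives the limma adjusted p of Pex5 ranged from 0.0413 to 0.42 and that of Pex6 from 0.0437 to 0.406. Each was thus called under some alternatives and not under others.

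The other import peroxins were not called either, and their differences were smaller or more spread. Pex7, the receptor for the N-terminal signal that the thiolases carry, was at 6.08 ± 0.09 in WT and 5.95 ± 0.27 in DKO (log2 difference -0.13, SE 0.11, adjusted p = 0.623), with DKO 1 and DKO 2 at the top and the other 4 below the WT range. In the docking complex, Pex14 had a log2 difference of -0.34 (SE 0.11, adjusted p = 0.113; 5 of 6 DKO libraries below the WT range) and Pex13 of -0.07 (SE 0.12, adjusted p = 0.822). The ubiquitin ligase peroxins Pex2 and Pex10, which help recycle the receptor, had log2 differences of -0.08 and -0.03 (adjusted p = 0.773 and 0.976). Pex26, the membrane anchor of Pex6, had a log2 difference of 0.02 (SE 0.28, adjusted p = 0.982). The signs for Pex10 and Pex26 turned when single libraries were left out.

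Peroxins of membrane assembly and division included the largest peroxin differences. Pex16, an anchor for new membrane proteins, was at 5.92, 5.94, 5.97, 6.23, 6.34 and 5.75 log2 CPM in WT 1 to WT 6 and at 5.47, 5.51, 5.76, 5.66, 5.77 and 5.58 in DKO 1 to DKO 6. Only WT 6 lay within the DKO range; the level was 75.7% of WT (log2 difference -0.40, SE 0.10, limma adjusted p = 0.0663; exact permutation p = 0.00649). Its partners Pex3 and Pex19 had log2 differences of -0.23 (adjusted p = 0.364) and -0.10 (adjusted p = 0.755). Pex11a, the division factor that PPARα agonists induce, ran from 5.95 to 7.30 in WT and from 5.72 to 6.45 in DKO, the most negative peroxin difference at -0.53 (SE 0.20, adjusted p = 0.2). Its relative Pex11g had a difference of -0.18 (SE 0.10, adjusted p = 0.394).

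**Figure D3:**
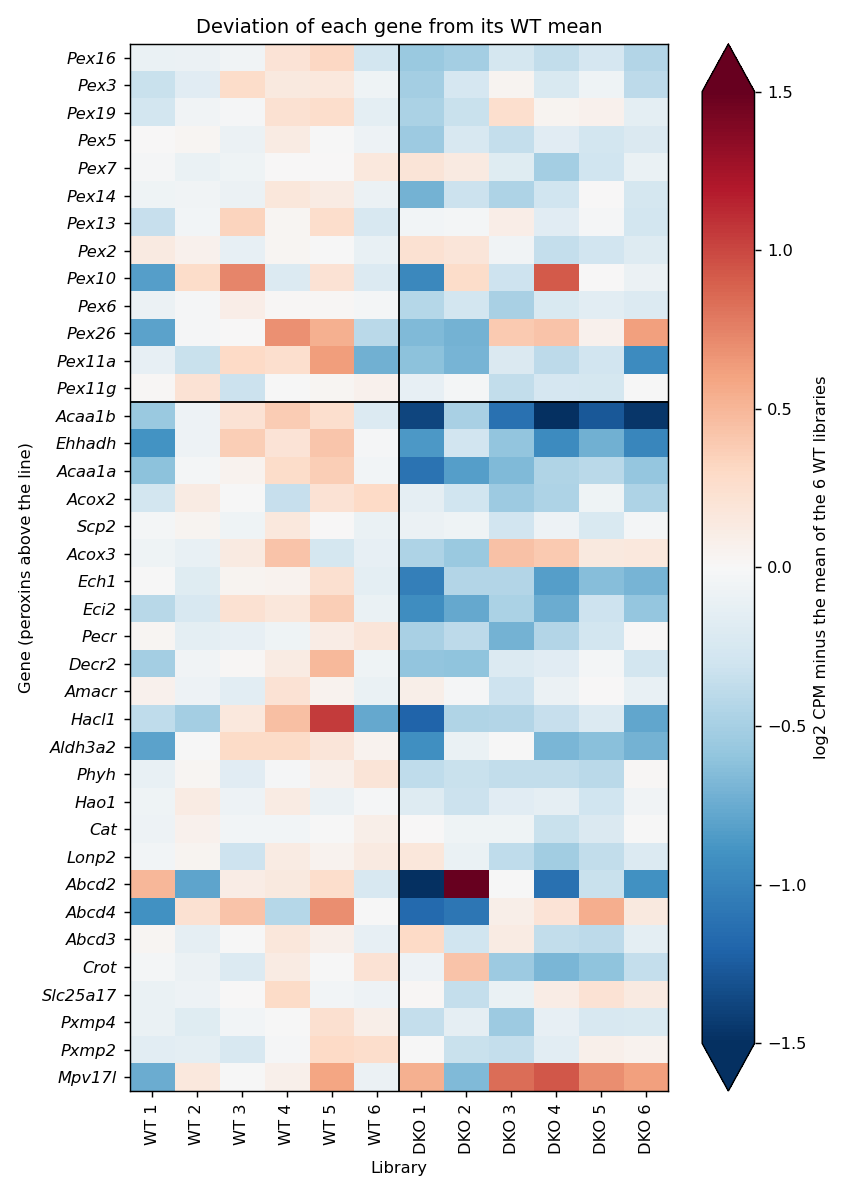
Log2 CPM of 38 of the 41 genes (rows, peroxins above the line) in each of the 12 libraries (columns), as the difference from the mean of the 6 WT libraries. Colours run from blue (lower) to red (higher) and are capped at 1.5; the DKO columns are mostly blue, WT 1 is blue for several enzymes and WT 5 is red for many rows.

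Libraries of one group differed in the level of the peroxisomal genes as a whole. WT 1 was the lowest WT library for 17 of the 41 members and WT 5 the highest for 15, while DKO 1 was the lowest DKO library for 14 and DKO 5 the highest for 12. The mean level of the 25 enzymes and transporters was 7.44 log2 CPM in WT 1 and 7.61 to 7.92 in the other WT libraries, and it was 7.20 in DKO 1 and 7.34 to 7.46 in the other DKO libraries. WT 1 was thus the only WT library within the DKO range. For the 16 peroxins the mean level ran from 5.31 (WT 1) to 5.73 (WT 5) in WT and from 5.15 (DKO 1) to 5.43 (DKO 4) in DKO. Without WT 1, 8 members were called, among them Ehhadh, Aldh3a2 and Pex6. Without both WT 1 and DKO 1, an alternative chosen after seeing the data, 5 were: Ehhadh beside the 4 of the full comparison. Calls among all genes rose as well, from 214 in the full comparison to 373 without WT 1, and they also rose without both libraries. The gain was thus not confined to the peroxisomal genes.

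Marker transcripts of several cell types also differed between the groups. In bulk liver, fewer hepatocytes and less RNA per hepatocyte cannot be told apart. For the other cell types, more cells and more RNA of the markers per cell cannot be told apart either. The median log2 difference over the 19 hepatocyte markers was -0.13, with 14 lower in DKO, 1 fallen and 0 risen. All 21 macrophage markers were higher in DKO, 3 rose, and they summed to between 439 and 814 CPM in WT and between 620 and 988 in DKO (median log2 difference 0.64). Markers of other cells were also mostly higher: 10 of 10 endothelial (median 0.19, 0 called by limma, 4 at an unadjusted p below 0.05), 8 of 9 stellate (0.33, 0 called, 6 unadjusted), 4 of 5 cholangiocyte (0.53, 2 rose), 3 of 4 lymphocyte (0.40, 0 called, 1 unadjusted) and 5 of 5 red blood cell genes (0.52, 0 called, 1 unadjusted). Among all genes 1.12% fell, 0.619% rose and 16.4% had an unadjusted limma p below 0.05 in either direction. Unadjusted shares of 25% for lymphocyte and 20% for red blood cell genes rest on 1 gene each. Of the markers of neighbouring tissues only Cfd, made by fat cells, had a value, and it fell, with 0.776 to 19.2 CPM in WT and 0.104 to 3.41 in DKO. Cfd in DKO 1 and DKO 6 was at 0.104 CPM, the lowest value in the deposited data, so the size of its fall is uncertain. With the mean of the hepatocyte markers subtracted from each library, also chosen after seeing the data, Acaa1b differed by -1.14 (limma adjusted p = 0.0164) and Ech1 by -0.62 (adjusted p = 0.0454) and both kept their call, while Acaa1a at -0.61 (adjusted p = 0.199) and Eci2 at -0.57 (adjusted p = 0.167) did not. The part of the other cell markers in the results was not tested.

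The list of other peroxisomal genes, also drawn up with earlier results known, held mostly lower genes. Of its 47 genes with a value 36 were lower in DKO, 6 fell and 0 rose (limma), with a median log2 difference of -0.21. Among all genes 49.2% were lower, 1.12% fell and 0.619% rose. At an unadjusted limma p below 0.05, 18 of the list were lower and 2 higher, against 8.47% and 7.95% of all genes. Those 2, named after their values were seen, were Idi1 (1.47, SE 0.66) and Agps (0.48, SE 0.19). Pipox, the oxidase of pipecolic acid and sarcosine, fell to 59.4% of WT: its log2 CPM ran from 7.78 to 8.09 in WT and from 6.82 to 7.48 in DKO with no overlap (adjusted p = 0.00322). Ephx2, the soluble epoxide hydrolase, fell to 67.0% (adjusted p = 0.00571) and Dhrs4, a carbonyl reductase, to 69.7% (adjusted p = 0.0136), both without overlap. Slc27a2, a very long chain acyl-CoA synthetase, fell to 69.8% (adjusted p = 0.0468). Pipox kept its call in every alternative, and Dhrs4 in all but the subtraction of hepatocyte markers (adjusted p = 0.0816). Ephx2 lost its call with that subtraction (adjusted p = 0.0773) and with quantile normalization (adjusted p = 0.0573). The call of Slc27a2 ended in 9 of the 12 comparisons with a single library left out.

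The transcript of the nuclear receptor itself was lower in DKO without being called. Ppara was at 7.34 ± 0.29 log2 CPM in WT and 7.15 ± 0.22 in DKO (log2 difference -0.18, SE 0.14, limma adjusted p = 0.552), and WT 1 (6.77) was the lowest of all 12 libraries. The 95% limma interval of the Ppara difference ran from -0.48 to 0.11, so it does not show that the level was unchanged. Of 8 genes of the receptor, its partners and coactivators, 6 were lower in DKO, with a median log2 difference of -0.12. Of these 8 genes, 0 were called by limma and 0 had an unadjusted p below 0.05.

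Mitochondria run a parallel β-oxidation, and several peroxisomal enzymes have mitochondrial counterparts. Of 16 genes of mitochondrial β-oxidation 15 were lower in DKO, with 4 fallen and a median log2 difference of -0.32, beside -0.30 for the peroxisomal enzymes and transporters. Called genes were 25% of this list, 16% of the peroxisomal enzymes and transporters and 1.74% of all genes. At an unadjusted limma p below 0.05, 14 of these 16 were lower, against 11 of the 25 enzymes and transporters and 8.47% of all genes. Pairs of related genes were compared within each library, which removes any scaling that the genes share. Ech1 relative to Echs1, the mitochondrial short-chain hydratase, went from 0.16 ± 0.17 in WT libraries to -0.35 ± 0.24 in DKO libraries (SD, n = 6 per group), so the ratio was 70.1% of its WT value (exact permutation p = 0.00649, adjusted p = 0.0455 over 7 pairs). The ratio of these genes was lower than any WT value in 5 of 6 DKO libraries, and DKO 3 (-0.01) lay within the WT range. With single libraries left out the adjusted p was 0.0152 to 0.0909. Ech1 is found in both organelles and Echs1 is a different enzyme, so this pair does not compare a peroxisomal with a mitochondrial form. The mitochondrial thiolase Acaa2 itself fell to 75.4% of WT (limma adjusted p = 0.0148). Acaa1a relative to Acaa2 changed by -0.27 (adjusted exact permutation p = 0.288) and Decr2 relative to Decr1 by 0.09 (adjusted exact permutation p = 0.422). A different response of the peroxisomal and mitochondrial forms was thus not shown. For Abcd2 relative to Abcd3 the difference was -0.17 (adjusted p = 0.779).

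**Figure D4:**
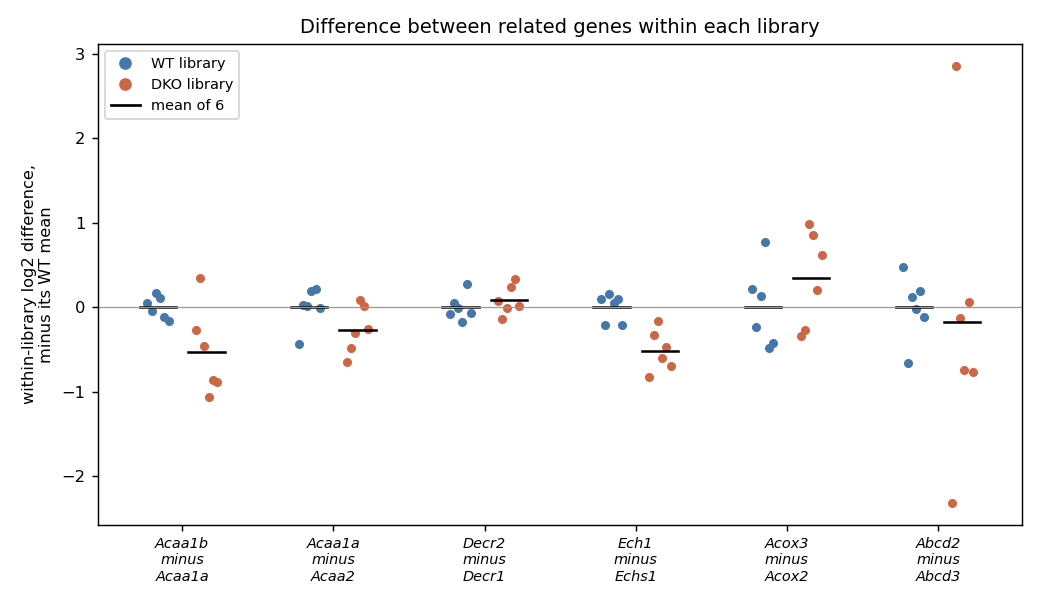
Within-library log2 difference between the genes of 6 of the 7 pairs (x axis), shown relative to its WT mean (y axis), for 6 WT and 6 DKO libraries; black bars are group means. Ech1 minus Echs1 has its DKO mean at -0.51 with 5 DKO points below all WT points, and Abcd2 minus Abcd3 has the widest DKO spread.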

How the data were processed

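Liver RNA of 6 WT and 6 DKO libraries was measured as log2 CPM, which the authors deposited as 1 table; its file name says that low genes were removed and libraries normalized, and the sources do not state the cutoff, prior count or scaling factors. Per the submitters' processing notes, kallisto 0.46.2, edgeR, limma, GRCm39 and mm39 were involved, in roles that are not stated. A single row without a name (1 of 12285, at most 0.0148% of the CPM in any library) was dropped. Depth is unknown, so variation among libraries sets the precision. limma 3.58.1 (R 4.3.3; mean trend, 2-sided) was fitted to all 12284 genes with no further filter, covariate or pseudocount, and a gene was called at a Benjamini-Hochberg adjusted p below 0.05; "fell" and "rose" mean called. Single genes, and the within-library differences of 7 related pairs, were also compared by 2-sided exact permutation over 924 divisions of the libraries. On simulated data (6 against 6 libraries, 12284 genes) limma recovered 35.8% of the genes shifted by 0.5 log2 units, 67.2% of those shifted by 1 and 92.4% of those shifted by 2.

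The members, the lists and the pairs were chosen with earlier results of these data known. All members were to be accounted for, with values in every library for the called ones, the closest in each role and a fixed few. Of the other lists each called gene was to be named; some genes of this rule are not reported here. Alternatives were no mean trend, robust limma, log2(CPM + 1), a mean of at least 1 log2 CPM, subtracted library medians, quantile normalization, array weights, a replicate block and each library left out, with the hepatocyte subtraction and the removal of WT 1 and DKO 1 added later. Promoters were matched by symbol (31 of 41 members), with the short motifs chosen after the repeat had been searched. Words of 31 bases were compared on both strands over the GENCODE M21 transcripts. Levels were not compared between genes, since gene lengths did not enter the values. Plots were made in Python 3.11.15 (matplotlib 3.10.9).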

Additional observations from a re-analysis of the deposited data

Results flagged for a closer look

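In 6 groups of 6 values a single library lay far from the rest, out of 96 groups examined; chance flags about 5% of groups. Acaa1b was highest of the DKO libraries in DKO 2 (10.37 log2 CPM, the next 9.74), and without DKO 2 its log2 difference was -1.35. Mpv17l was lowest in DKO 2 (3.65, the next 4.84). Phyh was highest of DKO in DKO 6 (10.76, the next 10.40). Slc25a17 was highest of WT in WT 4 (5.87, the next 5.59). WT 1 was the lowest WT library for Aldh3a2 (8.18, the next 8.97) and for the difference of Acaa1a and Acaa2 (-2.03, the next -1.59).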

How the results depend on the processing

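Of 1190 comparisons of a single gene or pair with an alternative, 1052 kept their direction and their side of the threshold, 84 lost a call, 18 gained one and 36 turned sign. Of 110 such comparisons of a count of called genes, 45 gave another count, 30 of them by more than 1.5 times. Most of the genes and pairs compared were not called in the full comparison, so staying uncalled counts as keeping their side. Acaa1b and Ech1 were called under every alternative run. Acaa1a kept its call in 1 of the 12 comparisons with a library left out and in 7 of the 10 other alternatives. Eci2 kept its call in 4 of those 12 and 7 of those 10. The count of all genes called, 214, was 138 without the mean trend, 109 with quantile normalization, 356 with array weights, 397 with the replicate block and 116 with hepatocyte markers subtracted. Leaving out single libraries gave 92 (WT 5) to 373 (WT 1); leaving out WT 2, WT 3, WT 4 or WT 6 gave 107, 112, 122 or 102, and leaving out DKO 1, DKO 3 or DKO 4 gave 124, 107 or 93. Peroxins called lower, 0 of 16, became 3 with library medians subtracted (Pex5, Pex6 and Pex16), 2 with array weights (Pex5 and Pex6), 2 with the replicate block (Pex11a and Pex16) and 0 to 2 with a library left out (Pex6 among them without WT 1 and without DKO 6). Enzymes and transporters called lower, 4 of 25, became 2 without the mean trend, 2 with quantile normalization, 2 with hepatocyte markers subtracted, 5 with array weights (Ehhadh gained), 5 without WT 1 and DKO 1 (Ehhadh gained), 6 with the replicate block (Ehhadh and Pecr gained) and 2 to 6 with a library left out; the 2 were Acaa1b and Ech1, and 6 came without WT 1 (Ehhadh and Aldh3a2 gained). The median log2 difference ranged from -0.23 to -0.17 for peroxins and from -0.32 to -0.22 for enzymes and transporters with a library left out, and from -0.22 to -0.14 (hepatocyte markers subtracted) and from -0.32 to -0.19 (quantile normalization) under the other alternatives.

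Same-numbered WT and DKO libraries correlated at 0.287, -0.077, 0.0926, 0.0957, 0.196 and 0.0444 in their deviations from the group means. For 3 of 6 numbers (1, 3 and 5) each library was the best match of the other. Whether the numbers pair the libraries is not stated in the labels and was not settled. The main comparison took no pairing and called 214 genes, and the replicate block, which pairs by number, called 397. Under that block Ech1 relative to Echs1 remained at -0.51, with an adjusted p of 0.109 by exact sign flips within the 6 numbers. Sign flips of 6 numbers allow no p below 0.03125 before adjustment, and this pair was at that limit. An adjusted p below 0.05 would have needed most of the gene pairs at the limit, so this test cannot show that the difference was lost. With a library left out that difference ranged from -0.58 to -0.45, Acaa1b relative to Acaa1a from -0.71 to -0.43 and Abcd2 relative to Abcd3 from -0.78 to 0.26. Signs near 0 turned: with hepatocyte markers subtracted Pex10 was at 0.033; with library medians subtracted Acox3 was at -0.0042 and Slc25a17 at -0.019; with quantile normalization Scp2 was at 0.0199, Amacr at 0.012 and Cat at 0.0014; and without WT 1 and DKO 1 Pex26 was at -0.0011, Abcd2 at 0.14 and Slc25a17 at -0.022. With a library left out Pex10 ranged from -0.22 to 0.16, Pex26 from -0.14 to 0.17, Acox3 from -0.068 to 0.13, Abcd2 from -0.88 to 0.038 and Slc25a17 from -0.041 to 0.074. The cause of these shifts was not tested.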
